A study of Mus musculus with 2 samples.

Results

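*Foxa1*, *Foxa2*, *Foxa3*, *Cebpa*, *Cebpb*, *Onecut2*, *Prox1* and *Gata6* encode 8 transcription factors that build and maintain hepatocyte identity. They were taken by gene symbol from a list of names, and all 8 were found among the 53342 rows of each liver table, 1 row each. The tables hold mRNA sequencing of 1 liver library from control mice and 1 from iFIRKO mice. iFIRKO (Adipoq-CreERT2; Insr flox/flox) is a tamoxifen-inducible knockout of the insulin receptor that acts through the adiponectin promoter, which is active in adipocytes, so the liver cells themselves keep the receptor gene and these libraries cannot check the deletion. Control mice are labelled WT, and the study's methods describe them as IR flox/flox. Mice of both groups were 7-week-old males, were given 100 mg/kg tamoxifen by intraperitoneal injection on 5 days in a row and were analysed 3 days after the last dose. Neither the labels nor the methods say whether a library came from 1 mouse or from several. With 1 library per genotype, no difference has a replicate check and no p-value was computed.

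Hepatocyte genes are switched on by a small set of factors that bind together at the same enhancers and at each other's promoters. FOXA proteins are pioneer factors of the forkhead family, which bind closed chromatin and open it for others. C/EBPα and C/EBPβ are basic leucine zipper proteins that bind the same DNA letters. C/EBPα is linked to the quiescent, metabolically mature hepatocyte, and C/EBPβ to the acute phase response and to regeneration after loss of liver tissue. ONECUT2 is a cut-homeodomain factor of liver and bile duct development, PROX1 is a homeodomain factor of hepatoblasts, hepatocytes and lymphatic endothelium, and GATA6 is a zinc finger factor of early endoderm.

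In the RefSeq promoter windows, 6 of the 8 genes had an entry, with 9 start sites between them. A short stretch each of 4 genes, the FOXA genes and *Cebpa*, is shown as an example of motif matches. All are from GRCm38.p6, run 5′ to 3′ on the strand of the gene and lie before a RefSeq start site. The *Cebpa* stretch lies inside the span of *Gm45091*, a gene on the opposite strand. The start used for *Foxa1* is inside the span that GENCODE gives this gene. The capitals mark matches to the motifs named after the sequences.
Foxa1 (chr12:57546222-57546281, minus strand): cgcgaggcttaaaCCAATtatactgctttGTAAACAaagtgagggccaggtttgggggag
Foxa2 (chr2:148047150-148047209, minus strand): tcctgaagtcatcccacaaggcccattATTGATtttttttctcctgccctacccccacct
Foxa3 (chr7:19023600-19023659, minus strand): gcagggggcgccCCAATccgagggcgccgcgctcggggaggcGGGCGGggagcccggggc
Cebpa (chr7:35119223-35119282, plus strand): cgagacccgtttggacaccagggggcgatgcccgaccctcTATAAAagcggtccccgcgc

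The *Foxa1* stretch holds a CCAAT box, which begins 157 bases before that start, and the letters of a FOXA motif (TGTTTAC, here read on the other strand) from 141 bases before it. The *Foxa2* stretch holds an Onecut motif (ATTGAT) from 213 bases before the start. The *Foxa3* stretch holds CCAAT and a GC box (GGGCGG), and the *Cebpa* stretch holds a TATA box (TATAAA) that begins 30 bases before the start. Both strands were searched over the 250 bases before each start, and none of these motifs overlaps another in the stretches shown. Of 32851 such windows over all genes, 3.2% held the FOXA letters, 6.7% the Onecut letters, 12.4% the TATA box, 33.8% CCAAT and 32.7% the GC box. A C/EBP motif (TTGCNNAA) was in none of the 9 windows of the 6 genes and in 9.6% of all windows. These matches describe letters in the sequence, and binding was not measured.

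The study concerns miR-144-3p and miR-486a-3p, miRNAs carried in serum vesicles, so the 3′UTR of the longest coding transcript of each factor was searched for matches to the seed of miR-144-3p. The seed, bases 2 to 8 of the mature RNA, is in capitals in the RefSeq sequence. In the sites, the capitals mark the weaker type of match, to bases 2 to 7 with an A after it.
mmu-miR-144-3p: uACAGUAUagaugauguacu
Cebpa 3′UTR site: agccttgtgtgTACTGTAtgtcgccagcc
Prox1 3′UTR site: taccaaggatgTACTGTAatattaattga

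The *Cebpa* site lies at positions 794 to 800 of a 3′UTR of 1430 nt, and the *Prox1* site at positions 4815 to 4821 of 5185 nt. *Onecut2* had 1 match to the whole seed, in a 3′UTR of 14356 nt, the longest of the 8. No match was found in *Foxa1*, *Foxa2*, *Foxa3*, *Cebpb* or *Gata6*. Of 20969 coding genes with a 3′UTR, 11.8% had a match to the whole seed and 18.5% had a match of either type. The genes with a match differed between the libraries by -0.07 (*Cebpa*), -0.10 (*Prox1*) and -0.29 (*Onecut2*) on the log2 scale, inside the range of the others (-0.50 to 0.14). miR-486a-3p was not analysed here.

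The authors deposited the log2 of a normalized read count, and values here were returned to the linear scale, in normalized reads. The libraries held an estimated 42278712 reads on genes in control and 41311107 in iFIRKO. A gene was tested where it had at least 41.8 normalized reads (1 RPM) in at least 1 library, which left 13400 genes, and all 8 factors passed in both libraries. The log2 fold change is iFIRKO over control with a pseudocount of 4.18 normalized reads, and a gene was called past 1.5-fold, a log2 of 0.585, the threshold of the study. Intervals are 95% exact Clopper-Pearson intervals on estimated read pairs. They cover counting error only and compare these 2 libraries, not the genotypes.

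None of the 8 factors was called in either direction, while 4.46% of tested genes were called higher and 7.28% lower. Their median log2 fold change was -0.18, beside 0.01 for all tested genes. A lower value was found for 7 of the 8 in the iFIRKO library, and for 48.7% of all tested genes, and *Gata6* alone had a higher one. For 6 factors the counting interval did not hold 0, as for 39.9% of tested genes, and all 6 lay below it. Intervals narrow as reads increase, and the 39.9% covers tested genes of every depth, so it was not matched to the 8 factors. Over all tested genes, 2677 intervals lay below 0 and 2673 above. *Foxa3* and *Gata6* had intervals that held 0. With the reads of the 8 genes added up, the sum was 26442 normalized reads in control against 23621 in iFIRKO, a log2 ratio of -0.16 (interval -0.20 to -0.13).

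**Figure D1:**
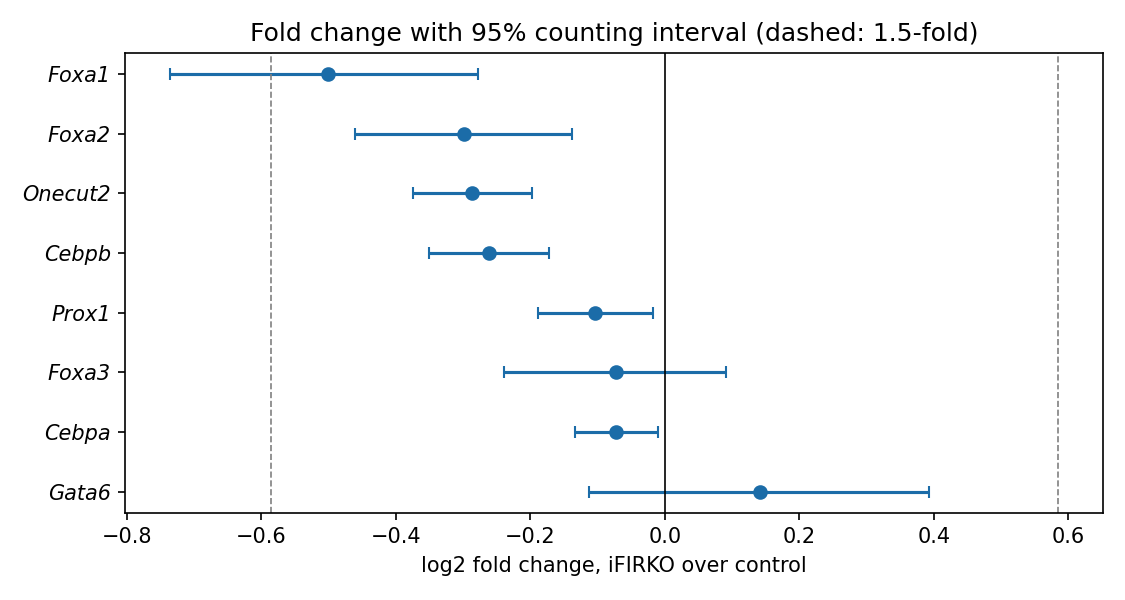
Log2 fold change of each factor (x axis, iFIRKO over control) with its 95% counting interval, 1 library per genotype. Dashed lines mark 1.5-fold in either direction: all 8 points lie between them, from *Foxa1* at -0.50 to *Gata6* at 0.14, and the interval of *Foxa1* reaches past the lower line.

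*Foxa1* (ENSMUSG00000035451.7, chromosome 12 of GRCm38, 57540628 to 57546916, minus strand) showed the largest difference of the 8. It had 768.8 normalized reads in control against 541.9 in iFIRKO, from an estimated 387 and 269 read pairs. The log2 fold change was -0.50 (interval -0.74 to -0.28), which is 1.42-fold lower and short of the threshold, although the interval extends past it. Of all tested genes, 9.4% had a lower fold change. *Foxa2* (ENSMUSG00000037025.11, chromosome 2, 148042877 to 148046969, minus strand), which in adult liver is known for its control of lipid and bile acid genes, had 1419.5 normalized reads in control against 1154.0 in iFIRKO. Its log2 fold change was -0.30 (interval -0.46 to -0.14). *Foxa3* (ENSMUSG00000040891.6, chromosome 7, 19013284 to 19023538, minus strand) had 1241.7 and 1180.2 normalized reads, a log2 fold change of -0.07, and no difference was detectable at this depth (interval -0.24 to 0.09).

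Of the FOXA ratios, 1 differed between the libraries beyond counting error. The ratio of *Foxa1* to *Foxa3*, per kb of the longest transcript, was 0.395 in control and 0.293 in iFIRKO, a log2 change of -0.43 with an exact conditional interval from -0.72 to -0.15. For *Foxa2* against *Foxa3* the log2 change of the ratio was -0.22 with an interval from -0.46 to 0.01, which holds 0, and for *Foxa1* against *Foxa2* it was -0.21 (interval -0.49 to 0.07). Of the summed FOXA level per kb, *Foxa1* made up 15.9% in control and 13.1% in iFIRKO, *Foxa2* 44.0% and 42.0%, and *Foxa3* 40.2% and 44.9%. A ratio within a library does not depend on how the libraries were scaled. Of the 31-base words in the *Foxa1* transcript, 0.253% also occurred in another gene, all in *Foxa2*, so sequence shared between the FOXA transcripts is short.

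*Cebpa* (ENSMUSG00000034957.10, chromosome 7, 35119293 to 35121928, plus strand) is a gene of 1 exon. It had 8840 normalized reads in control against 8411 in iFIRKO, the most of the 8 in both libraries, also per kb. The log2 fold change was -0.07 (interval -0.13 to -0.01), a difference of -4.8%. *Cebpb* (ENSMUSG00000056501.3, chromosome 2, 167688915 to 167690418, plus strand), also of 1 exon, had 4443 normalized reads in control against 3706 in iFIRKO, for a log2 fold change of -0.26 (interval -0.35 to -0.17). Per kb, the ratio of *Cebpb* to *Cebpa* was 0.878 in control and 0.769 in iFIRKO. The log2 change of that ratio was -0.19, with an interval from -0.30 to -0.08. The values of *Cebpb* stand beside a lower macrophage signal, a cell type that also expresses this gene. Of 11 macrophage and Kupffer cell markers, all tested, 8 were called lower and 0 higher, with a median log2 fold change of -0.62 and a sum of 43078 normalized reads in control against 27795 in iFIRKO. No marker of the list was at 0, and *Cd5l* (9323 and 5401) and *Clec4f* (8728 and 5677) were its highest. The part of these cells in the *Cebpb* value was not tested, and in whole liver fewer cells of a type and less RNA per cell cannot be told apart.

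*Onecut2* (ENSMUSG00000045991.19, chromosome 18, 64340020 to 64400987, plus strand) had 4616 normalized reads in control against 3784 in iFIRKO, for a log2 fold change of -0.29 (interval -0.38 to -0.20). Its transcript is 16234 nt long, so its level per kb is much lower than its read count makes it seem. *Onecut1*, the relative also called HNF6, had 668.3 and 731.8 normalized reads, a log2 fold change of 0.13 (interval -0.08 to 0.35). Per kb, *Onecut2* stood at 1.68 times the level of *Onecut1* in control and 1.26 times in iFIRKO, a log2 change of the ratio of -0.42 (interval -0.66 to -0.19). *Prox1* (ENSMUSG00000010175.13, chromosome 1, 190118035 to 190170714, minus strand) had 4615 normalized reads in control against 4293 in iFIRKO, for a log2 fold change of -0.10 (interval -0.19 to -0.02). It is also a gene of lymphatic endothelium, and of 5 tested lymphatic markers 2 were called lower, *Flt4* (-0.64, interval -0.83 to -0.46) and *Ccl21a* (-0.75, interval -1.85 to 0.13), while *Reln*, the highest of the list, had 1535 and 1688 normalized reads. The list median was -0.47. The list sum was 3531 normalized reads in control against 3013 in iFIRKO, and none was at 0. Most of that sum came from *Reln* and *Flt4* (1254 and 803.4), while *Ccl21a* had 52.9 and 29.8 normalized reads, near the minimum for testing. In whole liver the source of these reads is not known, so the list may not report lymphatic cells. The part of lymphatic cells in the *Prox1* value was not tested.

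*Gata6* (ENSMUSG00000005836.10, chromosome 18, 11052064 to 11085635, plus strand) was the lowest of the 8 per kb, with 498.5 normalized reads in control against 550.3 in iFIRKO. The log2 fold change was 0.14 with an interval from -0.11 to 0.39, and no difference was detectable at this depth. *Gata4*, its closest relative in liver, had 490.6 and 546.9 normalized reads, a log2 fold change of 0.16 (interval -0.10 to 0.41). The ratio of *Gata6* to *Gata4* changed by -0.02 on the log2 scale, with an interval from -0.38 to 0.34. GATA factors are also expressed in stellate cells, whose list of 10 tested markers had a median of 0.15, with 0 called in either direction and sums of 13515 and 14339 normalized reads. Its highest genes were *Dcn* (5518 and 5740) and *Col3a1* (2598 and 2919), none was at 0, and the part of stellate cells in the *Gata6* value was not tested.

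The levels of the 8 genes spanned a wide range once divided by transcript length. In control they ran from *Cebpa* at 3366 normalized reads per kb and *Cebpb* at 2954, through *Foxa2* at 667.1, *Foxa3* at 609.6 and *Prox1* at 583.2, to *Onecut2* at 284.3, *Foxa1* at 240.9 and *Gata6* at 131.7. *Foxa2*, *Foxa3* and *Prox1*, neighbours in that order, had overlapping counting intervals. In iFIRKO the order was *Cebpa* at 3203, *Cebpb* at 2464, *Foxa3* at 579.4, *Prox1* at 542.5, *Foxa2* at 542.3, *Onecut2* at 233.1, *Foxa1* at 169.8 and *Gata6* at 145.4. There the intervals of *Foxa3* and *Prox1*, of *Prox1* and *Foxa2*, and of *Foxa1* and *Gata6* overlapped. The longest *Gata6* transcript is much shorter than its merged exons (3784 and 6508 nt), and per kb of merged exons *Gata6* stood at 76.6 in control and 84.6 in iFIRKO, with no overlap with *Foxa1* in either library. On that scale *Foxa3* (609.6) came before *Foxa2* (598.9) in control, with overlapping intervals, and the order in iFIRKO was as above. By the mean level per kb, *Cebpa* lay above 94.3% of tested genes with an annotated length, *Foxa2* above 77.2%, *Foxa1* above 51.2% and *Gata6* above 40.6%.

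**Figure D2:**
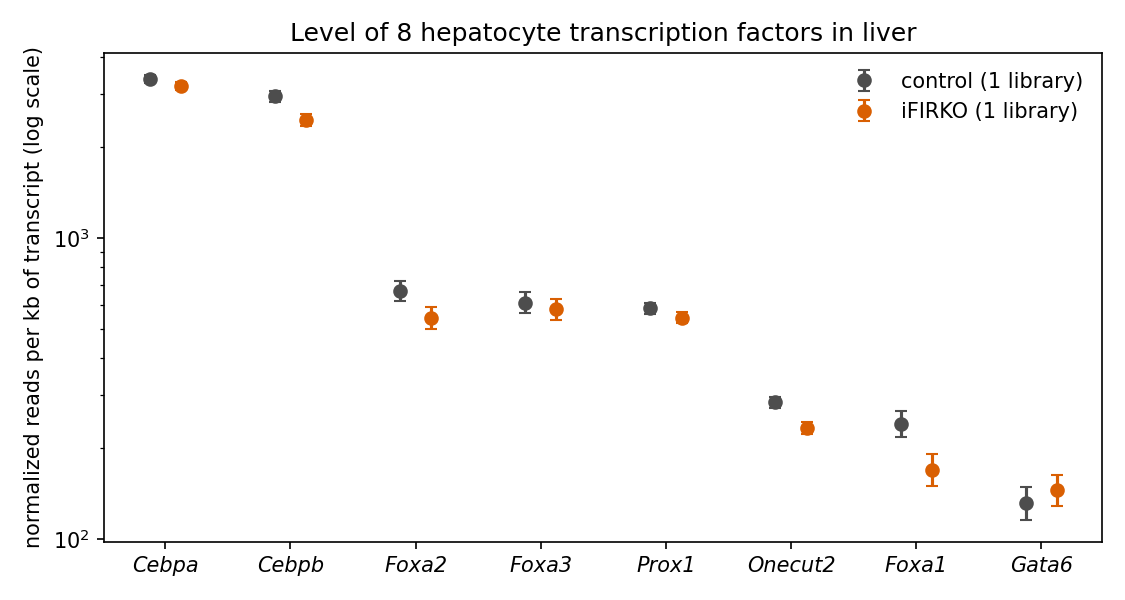
Normalized reads per kb of the longest transcript (y axis, log scale) for each factor in the control and the iFIRKO library, with 95% Poisson counting intervals. *Cebpa* and *Cebpb* stand at 2464 or above in both libraries and the other 6 at 667.1 or below, and the points of *Foxa1* are the farthest apart.

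Genes within 5000 bp of a factor were read beside it, since no source says whether strand was used in counting. *Tmem189*, which encodes a plasmalogen desaturase, lies on the opposite strand to *Cebpb* and shares 312 exon bases with it. It had 1069 normalized reads in control against 1744 in iFIRKO, for a log2 fold change of 0.70 (interval 0.55 to 0.86), and was called higher while *Cebpb* had a lower value. The log2 change of the ratio of *Cebpb* to *Tmem189* was -0.97 (interval -1.15 to -0.79). Reads over the shared bases could be counted for either gene, so the separate values of both are uncertain to that extent. *9030622O22Rik*, a long noncoding RNA 2674 bp from *Foxa2* on the same strand, had 346.9 and 216.6 normalized reads, a log2 fold change of -0.67 (interval -1.04 to -0.32), and was called lower. It lay lower together with *Foxa2*, and the ratio of the 2 genes changed by -0.38 with an interval from -0.77 to 0.01.

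*Prox1os*, antisense to *Prox1* with 133 shared exon bases, had 135.9 and 170.7 normalized reads (log2 fold change 0.32, interval -0.14 to 0.82). *1010001N08Rik*, antisense to *Gata6*, had 41.6 and 56.2 (0.40, interval -0.43 to 1.32), and *Sympk*, a polyadenylation factor gene beside *Foxa3*, had 2928 and 3219 (0.14, interval 0.03 to 0.24). *Gm45091* at *Cebpa*, *A530013C23Rik* at *Cebpb* and *Gm28172* at *Prox1* had at most 20.1 normalized reads in either library and were not tested.

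**Figure D3:**
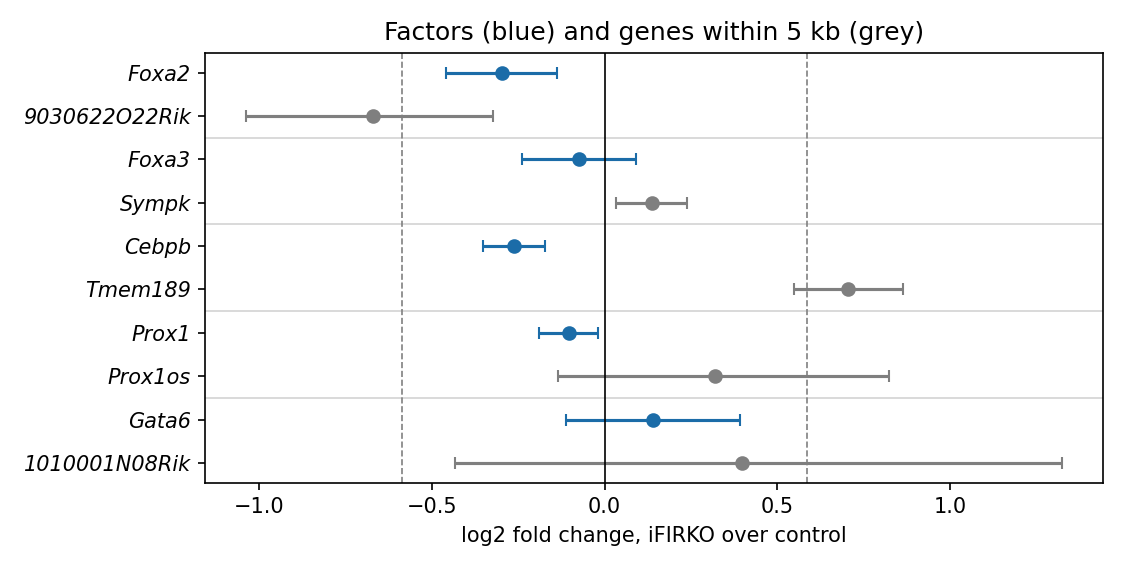
Log2 fold change (x axis, iFIRKO over control, 95% counting interval) of 5 factors in blue and, under each in grey, the tested gene within 5000 bp of it. *Tmem189* lies past the upper 1.5-fold line opposite *Cebpb*, and *9030622O22Rik* lies past the lower line on the same side as *Foxa2*.

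Other genes listed with the same factor families were also uncalled. Of 13 listed relatives, 8 were tested, 0 were called and the median was -0.03. *Cebpg*, a C/EBP protein without an activation domain, was the highest of them with 2486 and 2295 normalized reads (log2 fold change -0.11). Next came *Cebpz* with 1589 and 1479 (-0.10), which was listed for its name and does not encode a basic leucine zipper protein. *Cebpd*, which like *Cebpb* responds to inflammation, had 325.4 and 334.2 (0.04), and the stress factor gene *Ddit3* had 201.1 and 206.9 (0.04). *Cebpe*, known from granulocytes, had 235.1 and 173.6 (-0.43, interval -0.86 to -0.02). Its difference stands beside 3 tested neutrophil markers, *Csf3r*, *S100a8* and *S100a9*, that were all called lower (median -1.74, or -1.10 with a pseudocount of 1 RPM), with sums of 675.0 and 252.2 normalized reads and none at 0, and their part in it was not tested. *Prox2* had 126.4 and 99.4 (-0.33, interval -0.93 to 0.19). *Gata1* and *Onecut3* were listed at 0 in both libraries.

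Of 26 listed factors of the liver network, which include *Gata4* and *Onecut1*, 23 were tested. Only *Nr0b2*, the orphan receptor SHP that represses bile acid synthesis, was called, with 1480 normalized reads in control against 860.9 in iFIRKO, for a log2 fold change of -0.78 (interval -0.96 to -0.61). The median of the list was -0.02, with 6 counting intervals wholly below 0 and 6 wholly above it. The highest 3 were *Hnf4a* (29516 and 28673, log2 fold change -0.04), *Rxra* (14902 and 14396, -0.05) and *Atf5* (13327 and 14918, 0.16). *Hhex*, an early hepatic homeobox gene, had 2690 and 2246 (-0.26, interval -0.38 to -0.15), and *Nr5a2*, a nuclear receptor of bile acid and cholesterol genes, had 2269 and 1872 (-0.28, interval -0.40 to -0.15). *Hhex* and *Nr5a2* fall outside the naming rule and were named after their values were seen.

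**Figure D4:**
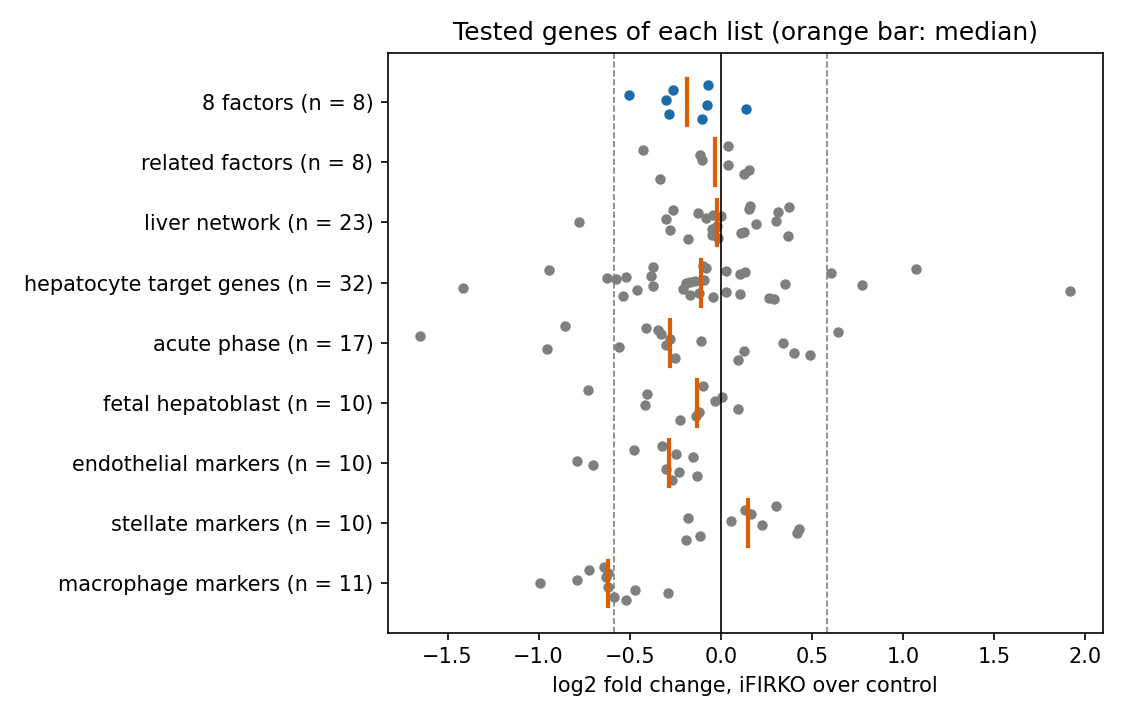
Log2 fold change (x axis, iFIRKO over control) of every tested gene of 9 gene lists, 1 point per gene, with the list median as an orange bar and dashed lines at 1.5-fold. The 8 factors span -0.50 to 0.14, while the 32 hepatocyte target genes, a longer list, span -1.41 to 1.92.

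Hepatocyte genes known as targets of these factors spanned a wider range than the 8 factors did, but a range can only widen as genes are added. Of 33 target genes listed, 32 were in the tables and tested. In all 4 were called higher and 3 lower, and the median was -0.11. Among the higher ones were *Pklr* (liver pyruvate kinase, 1.92), *Gys2* (liver glycogen synthase, 0.78) and *Apoc3* (0.61). The lower ones were *Igfbp1* (-1.41), *Apoa1* (the main HDL protein, -0.94) and *Cyp7a1* (the rate-limiting enzyme of bile acid synthesis, -0.62). Those with most normalized reads, by the mean of both libraries, were *Alb* (4167154 normalized reads in control against 3944156 in iFIRKO, log2 fold change -0.08), *Serpina1e* (400017 and 275765, -0.54) and *Serpina1c* (316865 and 340459, 0.10). The *Serpina1* genes are hard to tell apart by their reads, and these values are uncertain. *Hpx* came next (338016 and 261480, -0.37). *Ttr*, a classical FOXA and C/EBP target, had 203980 and 249350 (0.29), and *Tat*, another, had 80627 and 78238 (-0.04), and *Hpx*, *Ttr* and *Tat* were named after their values were seen. All 12 hepatocyte markers were tested, with a median of -0.13, and *Apoc3* was called higher and *Apoa1* lower, so the labelled tissue had its defining markers.

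Acute phase genes, a known set of C/EBPβ targets, had a median of -0.28. Of 17 tested, *Hamp*, the gene of the iron hormone hepcidin, was called higher (0.64), and *Il1rn* (-1.65), *Orm3* (-0.96) and *Apcs* (-0.86) were called lower. The most abundant were *Hp* (265758 and 212041 normalized reads, -0.33), *Itih4* (166307 and 154324, -0.11) and *Itih3* (79631 and 65529, -0.28). *Orm* genes are close copies, so the value of *Orm3* is uncertain. Members lay on both sides, with 6 positive and 11 negative values: *Saa2*, named after its value was seen, had 22204 and 29373 (0.40). Reads of *Saa2* and of *Saa1* (0.13) may be hard to tell apart, which was not tested, so the *Saa2* value is also uncertain.

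Genes of the fetal liver and of hepatoblasts showed 0 called higher and 1 lower among 10 tested of 16 listed, with a median of -0.13. *Cd24a*, a surface protein of progenitors, immune cells and bile ducts, was called lower (-0.73, interval -1.28 to -0.24). *Afp*, the fetal albumin relative, had 158.6 and 147.7 normalized reads (-0.10, interval -0.59 to 0.36). *Krt8* (8368 and 8953), *Krt18* (5886 and 5761) and *Peg3* (444.1 and 408.7) were the highest of the list. *H19*, *Igf2*, *Dlk1*, *Igf2bp1*, *Igf2bp3* and *Lin28b*, the untested genes, were under 41.8 normalized reads in both libraries.

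Other cell types differed between the libraries by marker lists. Of 10 endothelial markers *Kdr* (-0.79) and *Pecam1* (-0.70) were called lower and 0 higher, with a median of -0.29 and sums of 15347 and 12013 normalized reads, *Stab1* (2673 and 2172) and *Stab2* (2585 and 2203) being the highest. Of 7 tested cholangiocyte markers 0 were called, with a median of -0.23, led by *Spp1* (1827 and 1606), and of 6 mesothelial markers 0 were called, with a median of -0.05, led by *Msln* (330.6 and 309.6) and *Upk3b* (230.5 and 229.5). Of 3 tested lymphocyte markers 2 were called lower, among them *Cd79a* (113.4 and 17.1 normalized reads). Of 7 tested erythroid markers 6 were called higher, led by *Hbb-bs* (4415 and 8679) and *Hba-a1* (3358 and 6524), and *Klf1* was called lower (-1.01), with a list median of 0.97. Reads of the *Hba* copies, and of the *Hbb* copies, are hard to assign to 1 gene, and these values are uncertain. Markers of pancreas and gut were tested for 2 genes, *Fabp2* (called higher, 1.59) and *Cela1* (called lower, -1.41), with a median of 0.09, or -0.33 without a minimum, and 5 of the 8 were listed at 0 in both libraries. *Ccl21a*, *S100a8*, *Kdr*, *Pecam1* and *Klf1* were named after their values were seen. The part of these cells in the values of the 8 factors was not tested.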

How the data were processed

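Stranded mRNA libraries of liver were sequenced (Illumina NovaSeq). The authors deposited log2 values of normalized read counts, with 1 table per library and rows named by gene symbol. Their processing notes name the build mm10. The aligner, counter and annotation are not given in the sources used here. After return to a linear scale, the commonest low value was taken as 1 read pair, 2 reads, which gave factors of 0.9935 (control) and 1.0065 (iFIRKO). Of values below 40 normalized reads, 44.8% and 45.0% were then whole pairs within 0.01, so the values are not exact counts. For the intervals each value was rounded to whole read pairs and used as a count, so read pairs and intervals are estimates.

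Testing needed 1 RPM in at least 1 library, and 0.1 RPM was added as pseudocount. RPM is relative to the mean summed value of the libraries. The 95% intervals are Clopper-Pearson, Poisson and, for ratios, conditional. Level per kb used the longest GENCODE M21 transcript (GRCm38), matched by symbol for 13227 of 13400 tested genes. The code for calls and intervals was run on simulated libraries of whole read pairs with counting error only. Such libraries meet the assumption of the intervals, so they cannot show how calls or intervals perform on these data.

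The members and gene lists were chosen with earlier results of these data known. Genes named are the 8 factors, tested relatives, genes within 5000 bp, and of each list those called (at most 5 per direction) and the 3 with most normalized reads (not per kb), or the 2 with most for cell markers. No likeness of pattern was computed, since there are 2 libraries. Software was scipy 1.17.1, numpy 2.4.6 and pandas 2.3.3 under Python 3.11.15, with plots by matplotlib 3.10.9. Alternatives covered the pseudocount, minimum, scaling, fold, transcript length and duplicate symbols. Some genes that this rule names are not reported here.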

Additional observations from a re-analysis of the deposited data

How the results depend on the processing

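None of the 8 factors passed the fold threshold under any alternative, and 7 had a negative log2 fold change under each one that could change it. Changes of the minimum and of duplicate symbols could not alter the log2 fold change of a single factor. Under the other pseudocounts and scalings, each factor kept its sign and stayed inside its counting interval. The scalings only shifted all genes together, by -0.009 (median ratio), 0.003 (TMM) and -0.012 (total without the 20 most abundant genes) on the log2 scale. *Foxa1* ranged from -0.51 to -0.47. The median of the 8 factors ranged from -0.20 to -0.18, and the median of their relatives was -0.03, or 0.01 without a minimum, where genes near 0 enter. The neutrophil and the pancreas and gut medians also moved, to -1.10 with a pseudocount of 1 RPM and to -0.33 without a minimum. With merged exons in place of the longest transcript, the *Cebpb* to *Cebpa* ratio in iFIRKO was 0.772. The same change, applied to the other levels after seeing the data, took the control ratio of *Foxa2* to *Foxa3* from 1.09 to 0.983 and that of *Gata6* to *Gata4* from 0.913 to 0.610. Changes of a ratio between the libraries do not depend on length. The number of genes past the threshold in either direction was 1573, and 947 with a pseudocount of 1 RPM, 4580 without a minimum, 728 with a minimum of 5 RPM, where fewer genes are tested, and 476 with a fold above 2. The cause of the other shifts was not tested. No paired analysis was possible because there was a single library of each genotype, and none could be left out. At this depth the intervals of *Foxa1* and *Gata6*, with 251 to 387 read pairs per library, are the widest of the 8.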
